A study of Mus musculus with 18 samples.

Results

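IL-21 and 7 genes of the T follicular helper (Tfh) program were followed in RNA-seq data from naive and tolerized mouse CD4+ T cells. The genes were chosen by name, as Il21, Bcl6, Cxcr5, Ascl2, Sh2d1a, Slamf6, Pou2af1 and Cd200, and all 8 were found among the 37991 genes counted in each of the 18 libraries. CD4+ T cells were enriched from the spleens of Tg4-H2u mice, whose transgenic T cell receptor (TCR) recognizes a peptide of myelin basic protein. Male and female animals of 6 to 12 weeks were used. Tolerized mice (T) had received repeated subcutaneous injections of the 4Y peptide in escalating doses, and control mice (N) had received PBS on the same schedule, so their cells were mostly naive. T0 and N0 cells were harvested 2 h after a last injection of PBS, and TAg and NAg cells 2 h after a last injection of 4Y peptide. TPI and NPI cells were treated in culture for 2 h with PMA plus the ionophore A23187, which carries calcium (together PI), and these activate T cells without engaging the TCR. Each of the 6 groups has 3 biological replicates, and cells were enriched for CD4, not sorted for Tfh markers.

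Tfh cells are the CD4+ T cells that enter B cell follicles and help germinal center B cells. The transcription factor BCL6 directs the program, ASCL2 promotes early expression of the chemokine receptor CXCR5, and CXCR5 guides the cells toward CXCL13 in the follicle. The adaptor SAP, encoded by Sh2d1a, signals below SLAM family receptors such as SLAMF6 and sustains contact with B cells. IL-21 is the cytokine by which Tfh cells drive B cell growth and differentiation, and it is also made by other activated CD4+ T cells. CD200 is a surface glycoprotein carried by Tfh and other activated cells, and POU2AF1 (OCA-B) is a coactivator of octamer-binding transcription factors best known in B cells.

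Total counts per library ranged from 10758571 to 24119489. The T cell genes Cd3e and Cd4 averaged at least 1885 and 2185 normalized counts in every group, where a normalized count is a read count scaled to a common library size. B cell RNA was present in all groups. The summed normalized count of 12 B cell markers ranged from 600.3 to 2987 in N0, 789 to 4241 in T0, 737 to 2445 in NAg, 811 to 1304 in TAg, 1184 to 2524 in NPI and 1314 to 2851 in TPI, and all 12 were detected in every library. Neutrophil markers, 8 genes, summed to 58.5 to 163 in N0 and 1684 to 3046 in T0. Y-linked genes had at least 5111 reads in all NPI and TPI libraries, in T0 replicates 1 and 2 and in TAg replicate 3, and at most 18 in the other libraries. In NPI against N0, PI, culture and sex therefore cannot be told apart, and culture without PI was not analysed here. In these bulk samples a larger share of expressing cells and more RNA per expressing cell cannot be told apart either.

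The 8 genes did not move as 1 block. Il21, Cxcr5, Pou2af1 and Cd200 rose with both peptide and PI in naive and in tolerant cells. Sh2d1a fell in all 4 of these comparisons, Slamf6 fell in 3, and Bcl6 rose in 3 but fell in tolerant cells given peptide. Between tolerant and naive cells, Il21 was 8.04-fold higher after peptide and 16.4-fold higher after PI, whereas Bcl6 was lower after peptide and higher after PI. Ascl2 was nearly absent. Here and throughout, rose, fell, higher and lower as calls refer to a Benjamini-Hochberg adjusted p under 0.05 in edgeR's quasi-likelihood test over 17240 genes.

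**Figure D1:**
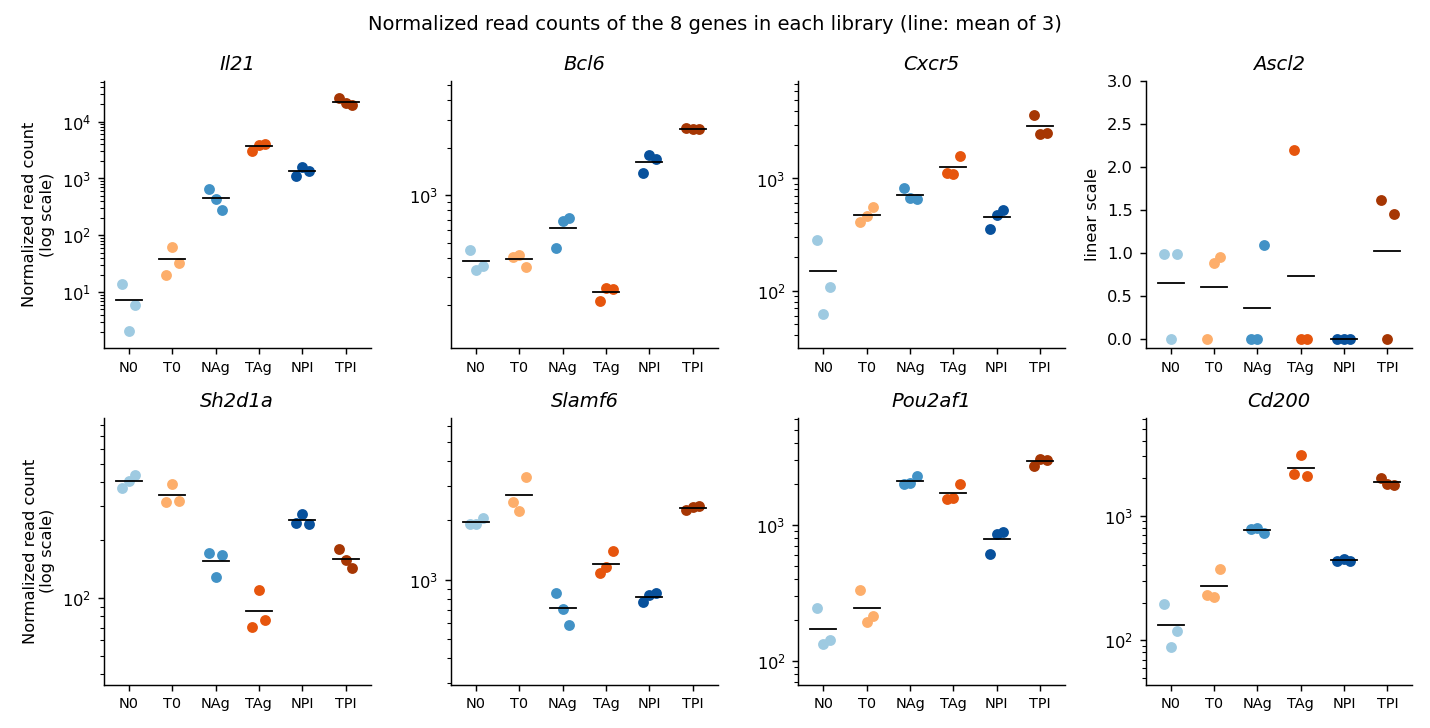
Normalized read counts of the 8 genes in each library (points, 3 per group, with the group mean as a line), on log axes except for Ascl2, which has a linear axis. Il21 spans from 2.09 in an N0 library to 25803 in a TPI library, Bcl6 is lowest in TAg, and Ascl2 does not exceed 2.20.

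The promoters of the genes that rose with peptide and PI in both cell states are shown because these genes moved together under stimulation. RefSeq windows were found for 6 of the 8 genes, all but Cxcr5 and Sh2d1a. For Il21, Pou2af1 and Cd200 the 250 bases before the annotated start are given 5′ to 3′ in the direction of transcription, in build GRCm38.p6, for the minus strand at chr3:37232637-37232886 (Il21), the plus strand at chr9:51213440-51213689 (Pou2af1) and the minus strand at chr16:45409054-45409303 (Cd200). Capitals mark the NFAT core GGAAA on either strand, which reads TTTCC on the minus strand. NFAT is the transcription factor activated by calcium signals downstream of the TCR.
Il21: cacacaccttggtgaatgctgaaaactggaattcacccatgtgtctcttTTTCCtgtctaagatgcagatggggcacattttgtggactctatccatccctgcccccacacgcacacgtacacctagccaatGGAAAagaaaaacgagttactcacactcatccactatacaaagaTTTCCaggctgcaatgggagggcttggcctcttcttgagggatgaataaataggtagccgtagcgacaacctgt
Pou2af1: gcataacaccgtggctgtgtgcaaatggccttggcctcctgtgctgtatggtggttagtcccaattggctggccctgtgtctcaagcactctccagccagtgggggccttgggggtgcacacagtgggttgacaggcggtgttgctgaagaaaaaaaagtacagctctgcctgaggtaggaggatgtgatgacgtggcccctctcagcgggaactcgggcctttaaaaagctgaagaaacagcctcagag
Cd200: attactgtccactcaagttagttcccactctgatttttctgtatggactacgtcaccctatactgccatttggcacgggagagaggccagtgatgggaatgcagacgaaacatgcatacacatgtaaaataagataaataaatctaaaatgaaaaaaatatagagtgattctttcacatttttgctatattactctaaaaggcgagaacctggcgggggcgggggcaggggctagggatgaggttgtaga
The Il21 window holds 3 matches, which begin 201, 118 and 74 bases before the start, and the windows of Pou2af1 and Cd200 hold 0. Of the 32851 mouse windows of this length, 55.6% hold at least 1 match to GGAAA. The AP-1 motif TGANTCA, where N is any base, matched in 6.75% of all windows and in 0 of these windows. A match is a description of the letters and not of a bound site.

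Il21 (ENSMUSG00000027718, NCBIM37 chr3:37121681-37131540, minus strand) encodes the cytokine IL-21. It had 13.9, 2.09 and 5.95 normalized counts in the 3 N0 libraries and 20.3, 61.8 and 32.6 in the T0 libraries. After peptide it reached 657, 438 and 283 in NAg and 3055, 3942 and 4050.0 in TAg. After PI it reached 1118, 1601 and 1346 in NPI and 25803, 21003 and 19746 in TPI. The libraries of no pair of groups next to each other in the order N0, T0, NAg, NPI, TAg and TPI overlapped. Such separation was common in these data. At rest, tolerant and naive libraries did not overlap for 35.0% of all tested genes. The shares were 47.7% after peptide and 50.5% after PI. Between stimulated and unstimulated libraries of the same cell state they ran from 64.5% to 72.5%. On a scale per exon length, Il21 rose from 0.169 RPKM (reads per kilobase of exon, scaled to library size) in N0 to 514 ± 74.1 (SD, n = 3) in TPI, where it ranked 118 among 17169 genes.

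Peptide raised Il21 by 5.93 ± 0.54 (SE) on the log2 scale in naive cells (61.0-fold, adjusted p = 3.47e-07) and by 6.58 ± 0.39 in tolerant cells (95.6-fold, adjusted p = 4.2e-09). PI raised it by 7.49 ± 0.50 in naive cells (adjusted p = 1.99e-08) and by 9.17 ± 0.41 in tolerant cells (adjusted p = 1.87e-10). Tolerant cells held more Il21 RNA than naive cells after both treatments, with log2 fold changes of 3.01 ± 0.30 after peptide (adjusted p = 5.1e-06) and 4.03 ± 0.30 after PI (adjusted p = 2.8e-07). At rest the difference was 2.36 ± 0.79 and missed the threshold (adjusted p = 0.0525). It rested on 2 to 14 reads per N0 library and ran from 1.80 without T0 replicate 2 to 3.20 without N0 replicate 1. It passed without T0 replicate 1 (2.67, adjusted p = 0.0443) and when only N0 and T0 were fitted (2.43, adjusted p = 0.0329), passed at 3.51 without N0 and T0 replicates 1 together and at 2.39 in DESeq2 (adjusted p = 5.07e-05), and was 1.46 (adjusted p = 0.577) with erythroid and myeloid covariates. The log2 ratio of the tolerant to the naive response was 0.65 ± 1.02 for peptide (adjusted p = 0.73), and 2 standard errors to either side spanned −1.40 to 2.69. For PI it was 1.68 ± 1.07 (adjusted p = 0.322, −0.46 to 3.81). In this edgeR fit a difference in fold response was not resolved at so low a resting level. DESeq2's test called the PI ratio (1.66 ± 0.64, adjusted p = 0.0349) and not the peptide ratio (0.58 ± 0.64, adjusted p = 0.542). In edgeR without N0 replicate 1, which holds 14 reads, the peptide ratio was −0.18 and the PI ratio 0.85. The naive responses were then 6.72 to peptide and 8.29 to PI. An annotated gene on the opposite strand, Gm12534, overlaps 35 bases of Il21 exon, and whether counting used strand is not given in the sources used here.

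Bcl6 (chr16:23965138-23988938, minus strand), the repressor that directs the Tfh program, had another pattern. Its normalized counts were 451, 335 and 355 in N0 and 402, 419 and 350.1 in T0, with overlapping libraries. After peptide they were 460.2, 681 and 713 in NAg and 214, 258 and 252 in TAg. After PI they were 1392, 1801 and 1690.0 in NPI and 2651, 2612 and 2620.0 in TPI. All TAg libraries lay below all resting libraries, and all NAg libraries above them.

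Peptide raised Bcl6 in naive cells by 0.70 ± 0.15 on the log2 scale (adjusted p = 0.000475) and lowered it in tolerant cells, with a log2 fold change of −0.70 ± 0.16 (adjusted p = 0.000933). The test of the difference between these responses gave −1.40 ± 0.22 (adjusted p = 0.000167), and it remained called in each of 12 fits that left out 1 library. In TAg against NAg the log2 fold change was −1.36 ± 0.16 (adjusted p = 3.17e-06), a level 2.57-fold lower. PI raised Bcl6 in both states, by 2.1 ± 0.15 in naive cells (adjusted p = 1.11e-09) and by 2.75 ± 0.15 in tolerant cells (adjusted p = 1.79e-11), and TPI exceeded NPI by 0.69 ± 0.14 (adjusted p = 0.000579). The PI responses differed by 0.65 ± 0.20 (adjusted p = 0.0303). That call was lost in 6 of 12 left-out fits, those without N0 replicate 1, T0 replicate 3, NPI replicate 1 or any TPI replicate, with log2 ratios from 0.53 to 0.75 over the 12. At rest the tolerant and naive levels differed by 0.04 ± 0.15 (adjusted p = 0.903, 2 standard errors from −0.26 to 0.34).

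Ascl2 (chr7:150152727-150155169, minus strand), a basic helix-loop-helix factor, was not tested because it fell below the minimum average of 3 normalized counts in every group. It had 0 reads in 10 of 18 libraries and at most 2 in any, with 11 reads over all of them. In the deepest library, TPI replicate 3, which had 2 reads, 3 reads are 0.124 CPM (counts scaled to library size). A count of 0 allows up to 3 reads, or 0.279 CPM in the shallowest library, N0 replicate 2, for counting error only. Ascl2 RNA was thus not detectable above this limit in most libraries.

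Pou2af1 (chr9:51021795-51048184, plus strand), the octamer coactivator whose promoter is shown above, had 244, 134 and 142 normalized counts in N0 and 331, 193 and 215 in T0. It rose to 2000.3, 2030.0 and 2269 in NAg and to 1540.1, 1563 and 2008 in TAg, and these groups overlapped. After PI it had 606, 863 and 879 in NPI and 2721, 3060.0 and 3014 in TPI, well apart. The log2 response to peptide was 3.6 ± 0.25 in naive (adjusted p = 1.04e-08) and 2.79 ± 0.24 in tolerant cells (adjusted p = 1.33e-07), and that to PI was 2.18 ± 0.25 (adjusted p = 3.28e-06) and 3.57 ± 0.24 (adjusted p = 8.96e-09).

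Pou2af1 in TPI exceeded NPI by 1.90 ± 0.22 on the log2 scale (adjusted p = 1.19e-05), and the PI response was larger in tolerant cells by 1.40 ± 0.34 (adjusted p = 0.00991). After peptide the tolerant and naive levels differed by −0.30 ± 0.21 (adjusted p = 0.291), and the difference in peptide response was −0.81 ± 0.33 (adjusted p = 0.111). At rest the difference was 0.51 ± 0.26 (adjusted p = 0.2). N0 replicate 1, which holds more B cell marker RNA than the other N0 libraries, was also the highest of them in Pou2af1. Without it the resting difference was 0.83 (adjusted p = 0.0302) and the difference in peptide response −1.12 (adjusted p = 0.0176). T0 replicate 1 was likewise the highest T0 library in both, and without it these values were 0.23 and −0.52, not called. With the B cell marker level as a covariate they were 0.33 (adjusted p = 0.124) and −0.57 (adjusted p = 0.0345).

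Cxcr5 (chr9:44319871-44334504, minus strand), the receptor for CXCL13, had 284, 61.6 and 107 normalized counts in N0 and 407, 465 and 558 in T0. Peptide brought 826, 666 and 655 in NAg and 1121, 1089.7 and 1595 in TAg. PI brought 356, 476 and 527 in NPI and 3689.7, 2468 and 2566 in TPI. NPI and T0 libraries overlapped, and the other groups next to each other in level did not. The highest N0 library was again replicate 1, whereas among T0 libraries replicate 1, with the highest B cell marker sum of all libraries, had the lowest Cxcr5.

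At rest Cxcr5 was 3.14-fold higher in tolerant cells (log2 fold change 1.65 ± 0.40, adjusted p = 0.0124). The call was kept with the B cell marker level as a covariate (1.62, adjusted p = 0.0181). With erythroid and myeloid covariates it was lost (1.29 ± 0.79, adjusted p = 0.58). It was also lost without N0 replicate 3 (1.45, adjusted p = 0.0563), with sex as a covariate (1.58, adjusted p = 0.0576) and when only N0 and T0 were fitted (1.72, adjusted p = 0.145). The log2 fold change ran from 1.28 to 2.48 over left-out libraries, with the highest value without N0 replicate 1. Peptide raised Cxcr5 by 2.24 ± 0.40 in naive (adjusted p = 0.000259) and 1.41 ± 0.36 in tolerant cells (adjusted p = 0.00385). PI raised it by 1.58 ± 0.41 (adjusted p = 0.00434; 0.079 when only N0 and NPI were fitted) and 2.61 ± 0.36 (adjusted p = 2.56e-05). The naive responses to peptide and PI were 3.03 and 2.37 without N0 replicate 1, and at the lowest 1.82 and 1.17, without N0 replicate 2. TPI exceeded NPI by 2.68 ± 0.37 (6.41-fold, adjusted p = 7e-05). TAg and NAg libraries did not overlap, as for 47.7% of all tested genes. The difference of 0.83 ± 0.35 missed the threshold (adjusted p = 0.0829), and passed when only these groups were fitted (0.84, adjusted p = 0.0065). The difference in peptide response was −0.82 ± 0.54 (adjusted p = 0.332), and −1.64 without N0 replicate 1 (adjusted p = 0.0111). For PI it was 1.03 ± 0.54 (adjusted p = 0.22), and 0.20 without N0 replicate 1.

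**Figure D2:**
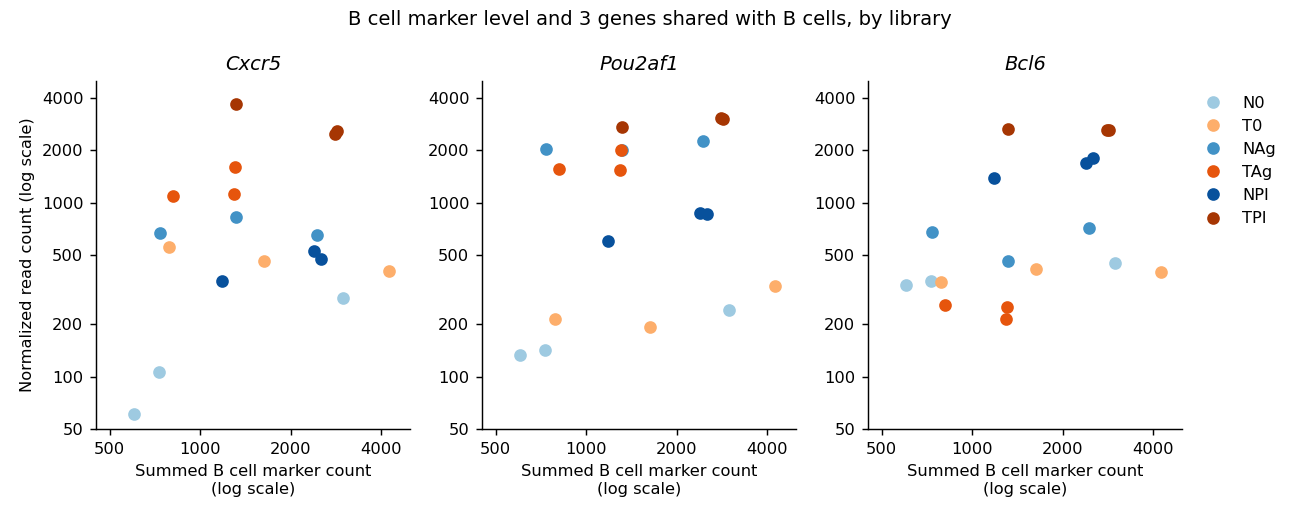
Normalized read counts of Cxcr5, Pou2af1 and Bcl6 against the summed normalized count of 12 B cell markers in the same library (log axes, 1 point per library, colored by group). TPI libraries lie above the N0 and T0 libraries at like B cell marker sums, and N0 replicate 1, with a sum of 2987, is the highest N0 library for each gene. The markers did not move alike, with Blk at 65.9 in N0 and 599 in TPI and Cd79b at 121 and 37.4. Like sums therefore need not mean like amounts of B cell RNA.

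Slamf6 (chr1:173847646-173879083, plus strand), a homotypic SLAM family receptor, was the most abundant of the 8 genes per exon length in resting cells, at 51.3 ± 2.16 RPKM in N0 and 69.9 ± 14.9 RPKM in T0. Its normalized counts were 1924, 1906 and 2058 in N0 and 2489.9, 2219.6 and 3313 in T0. After peptide they were 858, 708 and 585 in NAg and 1074, 1153 and 1390.3 in TAg. After PI they were 769, 831 and 856 in NPI and 2258, 2338 and 2362 in TPI. NAg and NPI libraries overlapped at the low end, and TPI and T0 at the high end.

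Slamf6 fell with peptide in naive (log2 fold change −1.45 ± 0.14, adjusted p = 9.49e-08) and in tolerant cells (−1.15 ± 0.14, adjusted p = 1.59e-06). PI lowered it in naive cells (−1.26 ± 0.14, adjusted p = 7.01e-07), while in tolerant cells the log2 fold change was −0.20 ± 0.14 (adjusted p = 0.194, 2 standard errors from −0.48 to 0.07; −0.35 and adjusted p = 0.0332 without T0 replicate 2). With erythroid and myeloid covariates that value turned to a called rise of 0.40 (adjusted p = 0.045). The PI responses differed by 1.06 ± 0.20 (adjusted p = 0.000988) and the peptide responses by 0.31 ± 0.20 (adjusted p = 0.321; 0.51 and adjusted p = 0.0302 without T0 replicate 3, 0.55 and adjusted p = 0.00861 with erythroid and myeloid covariates). Slamf6 was higher in tolerant than in naive cells after peptide (0.75 ± 0.14, adjusted p = 0.000574; 0.26 and adjusted p = 0.248 with erythroid and myeloid covariates) and after PI (1.5 ± 0.14, adjusted p = 3.77e-07). The resting difference of 0.45 ± 0.14 (adjusted p = 0.0299) was lost in 5 of 6 left-out fits, all but the one without T0 replicate 2, with log2 fold changes from 0.25 to 0.56, and turned to −0.29 (adjusted p = 0.599) with erythroid and myeloid covariates.

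Sh2d1a (chrX:39855630-39876874, plus strand), which encodes the SLAM adaptor SAP, was the gene that fell with every stimulus. It had 374, 405 and 434 normalized counts in N0 and 316, 392 and 318 in T0, with overlap. It had 171, 128 and 167 in NAg and 70.5, 109.7 and 76.8 in TAg. It had 244, 273 and 243 in NPI and 179, 158 and 142 in TPI. NAg and TPI libraries overlapped.

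The log2 fold change of Sh2d1a with peptide was −1.38 ± 0.14 in naive (adjusted p = 4.62e-09) and −2.00 ± 0.15 in tolerant cells (adjusted p = 2.19e-11), and with PI −0.68 ± 0.13 (adjusted p = 0.00012) and −1.10 ± 0.14 (adjusted p = 1.65e-07). Tolerant cells held less Sh2d1a RNA than naive cells after peptide (−0.87 ± 0.16, adjusted p = 0.000127) and after PI (−0.66 ± 0.14, adjusted p = 0.000529; −0.56 and adjusted p = 0.0584 with erythroid and myeloid covariates), and the resting difference was −0.24 ± 0.13 (adjusted p = 0.212). The peptide responses differed by −0.63 ± 0.21 (adjusted p = 0.0318). This call was lost in 7 of 12 left-out fits, those without N0 replicate 1 or 2, T0 replicate 2, NAg replicate 1 or 3 or TAg replicate 1 or 3, with values from −0.84 to −0.49. The difference in PI response was −0.42 ± 0.19 (adjusted p = 0.133). Because Sh2d1a is X-linked and the libraries differ in sex, a fit with sex as a covariate was made, and each Sh2d1a call was the same. The sex effect was estimated from T0 and TAg, the groups that hold both sexes, and taken to be the same in the others. An unchanged call in NPI against N0 therefore does not part PI from sex.

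Cd200 (chr16:45382248-45409166, minus strand), whose promoter is shown above, had 194, 87.7 and 119 normalized counts in N0 and 229, 221 and 370.2 in T0. After peptide it had 783, 795 and 721 in NAg and 2174, 3064 and 2081 in TAg. After PI it had 437, 449.7 and 433 in NPI and 2012, 1808 and 1771 in TPI. No groups next to each other in level overlapped, and Cd200 was highest in TAg.

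Cd200 was higher in tolerant than in naive cells in each condition, by 1.02 ± 0.27 on the log2 scale at rest (adjusted p = 0.0164), 1.67 ± 0.22 after peptide (adjusted p = 5.11e-05) and 2.08 ± 0.23 after PI (adjusted p = 7.72e-06). The resting call was lost without N0 replicate 2 (0.79, adjusted p = 0.0686), N0 replicate 3 (0.94, adjusted p = 0.0655) or T0 replicate 3 (0.74, adjusted p = 0.0539), and when only N0 and T0 were fitted (1.09, adjusted p = 0.0928). Peptide raised Cd200 by 2.51 ± 0.26 in naive (adjusted p = 8.24e-07) and 3.16 ± 0.24 in tolerant cells (adjusted p = 3.85e-08), and PI by 1.71 ± 0.26 (adjusted p = 5.86e-05) and 2.77 ± 0.24 (adjusted p = 1.27e-07). The difference in PI response, 1.06 ± 0.35, lay at the threshold (adjusted p = 0.0495) and was lost in 10 of 12 left-out fits, all but those without N0 replicate 2 or T0 replicate 3, with values from 0.70 to 1.36. The difference in peptide response was 0.65 ± 0.35 (adjusted p = 0.228), and 0.95 without T0 replicate 3 (adjusted p = 0.047).

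**Figure D3:**
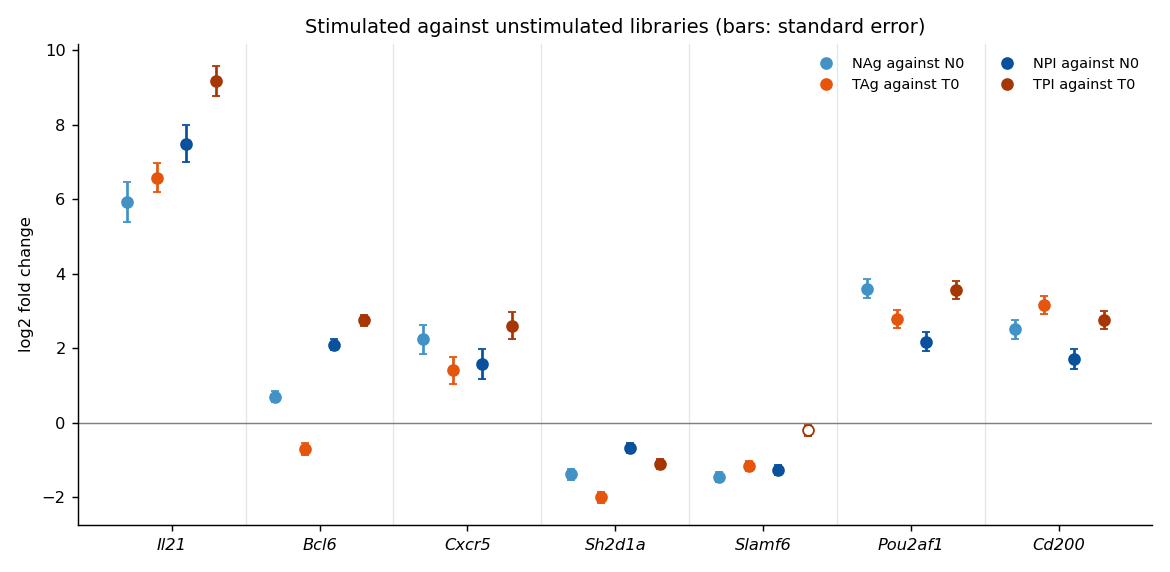
Log2 fold changes of the 7 tested genes with peptide (NAg against N0, TAg against T0) and with PI (NPI against N0, TPI against T0), with standard errors; filled points have an adjusted p under 0.05. Il21 has the highest values, up to 9.17, Sh2d1a lies below 0 throughout, and Bcl6 lies at 0.70 and −0.70 for the peptide comparisons.

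Read over the 7 tested genes, peptide in naive cells raised 5 and lowered 2, where 32.1% of all tested genes rose and 33.4% fell. In tolerant cells peptide raised 4 and lowered 3 (29.9% and 29.8% of all genes). PI raised 5 and lowered 2 in naive cells (28.6% and 32.7%), and raised 5 and lowered 1 in tolerant cells (32.0% and 36.3%). So many genes moved with stimulation that these counts are given only beside those shares. Naive and tolerant comparisons with peptide and PI share the N0 or the T0 libraries.

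Between tolerant and naive cells at rest, 3 of the 7 genes were higher (Cxcr5, Slamf6 and Cd200) and 0 lower, against 8.42% and 12.0% of all genes. The median log2 fold change of the 7 was 0.51, and that of all genes −0.08. This resting result moved with other markers and settings. Treg markers, 4 genes, summed to 1338 to 2938 in N0 and 6677 to 8587 in T0, with Foxp3 averaging 263 and 719, and the part of Treg RNA in the result was not tested. With erythroid and myeloid marker levels, neutrophil genes included, as covariates 0 of the 7 were called, and with sex as a covariate 1. The shares of all genes called in these fits are not given here. The neutrophil marker levels of T0 and N0 do not overlap. After peptide, 3 genes were higher in tolerant cells and 2 lower (20.9% and 18.5% of all genes), and after PI 6 were higher and 1 lower (18.2% and 19.7%). Marker levels of other cells moved with these comparisons too. Neutrophil markers summed to 129 to 339 in NAg and 2125 to 3651 in TAg, and to 63.7 to 170.4 in NPI and 396 to 673 in TPI. After PI most of the neutrophil sum was Mpo, which averaged 85.5 in NPI and 388 in TPI. Each other neutrophil marker averaged at most 12.5 in NPI and 52.1 in TPI. S100a8, for one, averaged 16.7 in TPI and 864 in TAg. Treg markers summed to 24946 to 29387 in NAg and 31407 to 32899 in TAg, and to 6500.1 to 7782 in NPI and 19400.4 to 23315 in TPI, with no overlap in any of these pairs. The largest part of these Treg sums was Il2ra, at 24759 in NAg, 22561 in TAg, 4499 in NPI and 12064 in TPI. Foxp3 averaged 694, 963, 380 and 895 in these groups. Ikzf2 averaged 1593, 6695, 1893 and 6742, and Nrp1 361, 2164, 274 and 1363. With the erythroid and myeloid covariates the Il21 log2 fold changes were 2.37 after peptide (adjusted p = 0.00258) and 3.79 after PI (adjusted p = 4.95e-05), and the part of Treg RNA was not tested. The median of the 7 was 0.75 after peptide and 1.90 after PI, beside 0.01 and −0.04 for all genes. For the difference in peptide response 0 genes were higher and 2 lower (14.6% and 7.09%), and for the difference in PI response 4 were higher and 0 lower (12.7% and 7.52%). At an unadjusted p under 0.05 in the same edgeR test, Sh2d1a was lower in PI response, and the counts of 0 at rest and for peptide stayed at 0, as they did with DESeq2's test at an adjusted p under 0.05.

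**Figure D4:**
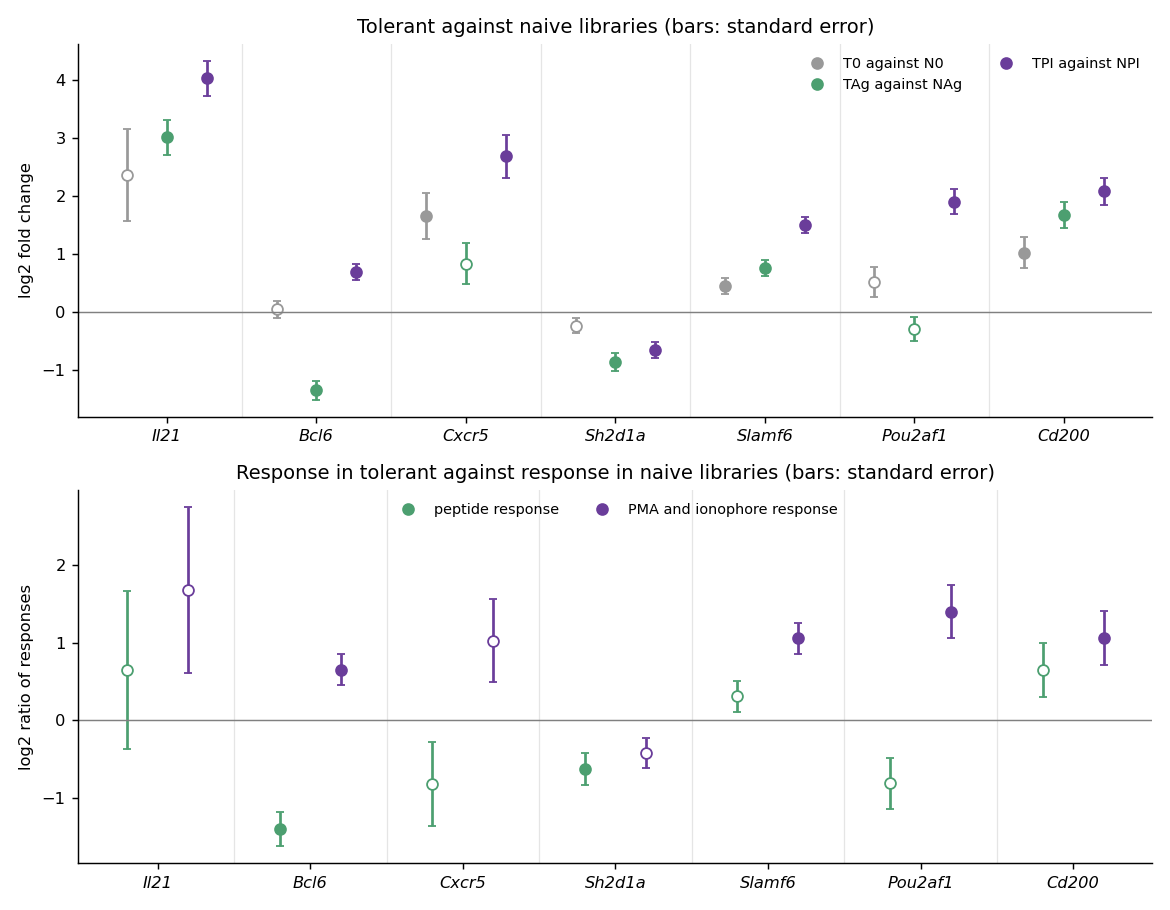
Upper panel, log2 fold changes of tolerant against naive libraries at rest, after peptide and after PI; lower panel, log2 ratios of the tolerant to the naive response; bars are standard errors and filled points have an adjusted p under 0.05. For Bcl6 the peptide and PI values lie on opposite sides of 0 in both panels (−1.36 and 0.69, −1.40 and 0.65).

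For each gene the 3 genes with the most similar pattern were taken by Pearson's r over the 6 group means of log2 CPM, among 11555 genes with an average of at least 50 in some group. These values share libraries and so describe likeness only. The nearest to Il21 were Gp49a (r = 0.997), Casp4 (0.997) and Penk (0.995). The nearest to Bcl6 were Ddx6 (0.996), AC122821.1 (0.995) and Jmjd1c (0.995), to Cxcr5 Socs2 (0.985), Synpo (0.983) and Ahr (0.983), and to Sh2d1a Ablim1 (0.995), Sytl2 (0.988) and Fancm (0.987). The nearest to Slamf6 were Ddhd1 (0.990), Ric8 (0.981) and Oxr1 (0.970), to Pou2af1 Zswim6 (0.995), Tnfrsf18 (0.994) and Hif1a (0.994), and to Cd200 Tle3 (0.992), Rnf11 (0.989) and Zeb2 (0.988).

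The other genes of the program were described from a list of 47 genes, all of which were tested, in the parts of cytokine and transcription factors (14), receptors, ligands and adaptors (18) and genes that oppose the program or are lost in Tfh cells (15). At rest 12 of the 47 were higher and 7 lower in tolerant cells, beside 8.42% and 12.0% of all tested genes. Maf, which encodes a factor that drives IL-21 and IL-10 expression, averaged 2781 normalized counts in T0 and 439 in N0 (2.66 ± 0.33 on the log2 scale, adjusted p = 0.000128). The costimulator Icos (1.18 ± 0.15), the inhibitory receptor Pdcd1 (1.47 ± 0.21), the octamer factor Pou2f2 (1.56 ± 0.22) and the Th1 factor Tbx21 (1.78 ± 0.26) were also higher. So was Prdm1, whose product BLIMP1 opposes BCL6 (1.06 ± 0.22, adjusted p = 0.00387). Cd40lg, the CD40 ligand by which T cells help B cells (−1.25 ± 0.15), the factor Lef1 (−0.93 ± 0.08) and the homing receptor Ccr7 (−0.63 ± 0.10) were lower.

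After peptide, 17 of the 47 genes were higher and 13 lower in tolerant cells, beside 20.9% and 18.5% of all genes. Maf reached 10356 in TAg and 618 in NAg (4.07 ± 0.34, adjusted p = 1.1e-06), and Pou2f2 (1.98 ± 0.19), Prdm1 (1.66 ± 0.20) and Icos (1.43 ± 0.14) were higher. Cd40lg averaged 277 in TAg and 7855 in NAg (−4.82 ± 0.17, adjusted p = 2.65e-12), and Slamf1 (−1.5 ± 0.10) and the IL-2 signal transducer Stat5a (−1.05 ± 0.09) were lower. Pdcd1 differed by 0.19 ± 0.16 (adjusted p = 0.402). In TAg the level of Bcl6 was thus low and that of Prdm1 raised, at 241 and 1437 normalized counts, beside 618 and 454 in NAg. The 2 genes were not opposed in every group, and both were highest in TPI, at 2628 and 1872.

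After PI, 27 were higher and 10 lower in tolerant cells, beside 18.2% and 19.7% of all genes, with 12 of the 18 receptors, ligands and adaptors higher and 1 lower. Maf (3.02 ± 0.33), Pou2f2 (2.54 ± 0.20), the CD30 ligand Tnfsf8 (2.40 ± 0.22), Pdcd1 (2.22 ± 0.17), Icos (1.58 ± 0.14) and Prdm1 (1.2 ± 0.19) were higher. Lef1 (−1.67 ± 0.08), S1pr1 (−1.57 ± 0.11) and Klf2 (−1.48 ± 0.29), the last 2 of which control exit from lymphoid tissue, were lower. Il4, the other cytokine typical of Tfh cells, averaged 141 in NPI and 85.7 in TPI (−0.72 ± 0.30, adjusted p = 0.0642) and at most 4.65 in the other 4 groups.

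With peptide 28 of the 47 rose and 15 fell in naive cells (32.1% and 33.4% of all genes), and 25 rose and 15 fell in tolerant cells (29.9% and 29.8%). With PI 33 rose and 10 fell in naive cells (28.6% and 32.7%), and 34 rose and 9 fell in tolerant cells (32.0% and 36.3%). The counts that fell with peptide lie near the shares of all genes. Irf4, a factor induced by TCR signals, rose by 7.46 ± 0.16 (NAg), 6.23 ± 0.15 (TAg), 6.95 ± 0.16 (NPI) and 6.93 ± 0.16 (TPI) on the log2 scale. With peptide, Il2ra rose by 6.05 ± 0.26 in naive and 5.02 ± 0.25 in tolerant cells, Tbx21 by 5.11 ± 0.26 in naive and Tnfrsf4 by 3.97 ± 0.17 in tolerant cells. The activation marker Cd83 rose with PI by 4.81 ± 0.40 and 6.28 ± 0.41. Pdcd1 rose by 3.87 ± 0.20 and 2.59 ± 0.18 with peptide and by 2.33 ± 0.20 and 3.09 ± 0.18 with PI in naive and tolerant cells. Icos rose by 1.99 ± 0.15, 2.23 ± 0.14, 1.89 ± 0.15 and 2.28 ± 0.14, and Prdm1 by 1.48 ± 0.22, 2.08 ± 0.20, 2.33 ± 0.22 and 2.46 ± 0.20, in NAg, TAg, NPI and TPI. Maf rose only in TAg among these 4 comparisons (1.90 ± 0.30), with 0.49 ± 0.33 in NAg, −0.13 ± 0.34 in NPI and 0.23 ± 0.30 in TPI. S1pr1 fell with peptide (−4.10 ± 0.13 and −2.89 ± 0.12) and with PI (−0.32 ± 0.11 and −1.76 ± 0.11) in naive and tolerant cells.

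The peptide response differed between tolerant and naive cells for 27 of the 47 genes, with 11 higher and 16 lower (14.6% and 7.09% of all genes). Cd40lg (−3.57 ± 0.22), Slamf1 (−1.72 ± 0.14), Tox2 (−1.53 ± 0.41) and Pdcd1 (−1.28 ± 0.27) responded less in tolerant cells, and Maf (1.41 ± 0.45), S1pr1 (1.21 ± 0.17) and Ccr7 (1.02 ± 0.15) had higher ratios. The PI response was higher for 17 and lower for 9 (12.7% and 7.52% of all genes), with Tnfrsf4 (1.78 ± 0.24), Tnfsf8 (1.76 ± 0.30) and the inhibitory receptor Btla (1.40 ± 0.14) at one end and Klf2 (−1.48 ± 0.41), S1pr1 (−1.44 ± 0.16) and Gpr183 (−1.01 ± 0.14) at the other.

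**Figure D5:**
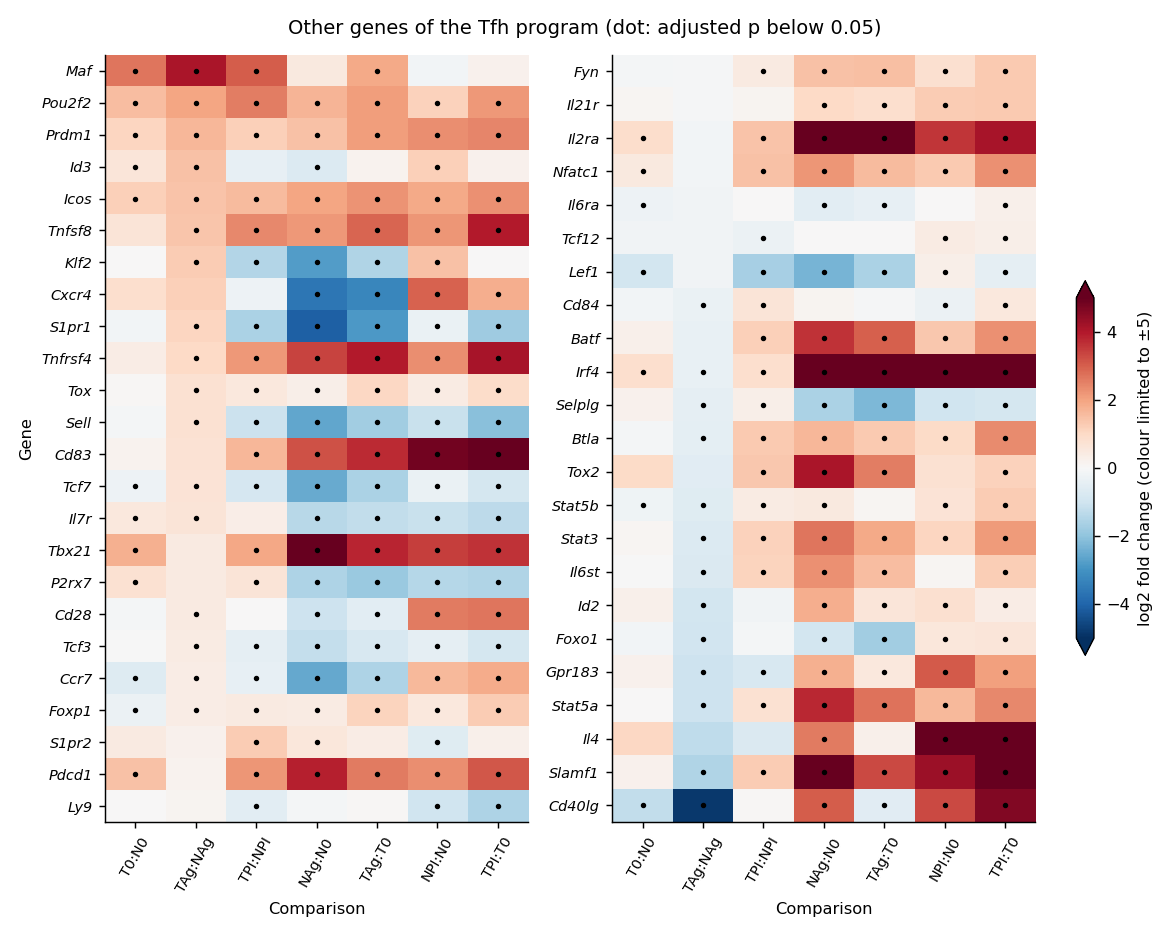
Log2 fold changes (color, limited to ±5) of 47 other genes of the Tfh program in 7 comparisons, ordered by TAg against NAg, with a dot where the adjusted p was under 0.05. Maf stands at the top with 4.07 and Cd40lg at the bottom with −4.82, and Irf4 and Il2ra are among the darkest cells of the stimulation columns.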

How the data were processed

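RNA-seq was measured in 18 libraries, 3 per group. The authors aligned paired-end reads of rRNA-depleted RNA to mm9 with TopHat2 2.1.1 and counted them per Ensembl gene with HTSeq 0.9.1, per the submitters' processing notes. The deposited values are raw read counts for 37991 genes. Strand and overlap modes are not given in the sources used here. Symbols and positions came from an NCBIM37 annotation, which named 37205 genes. The Y-linked and Xist reads were used to find each library's sex.

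Groups came from the sample labels. The 17240 genes that averaged 3 or more normalized counts in some group entered the test. After TMM scaling, edgeR 4.0.16 (R 4.3.3) estimated 1 mean per group from the 18 libraries together, and each comparison used its robust quasi-likelihood F test. Adjusted p is the Benjamini-Hochberg value over all tested genes, and a call is an adjusted p under 0.05. Standard errors were derived from the log2 fold change and F. RPKM uses merged exon length and the TMM-scaled library size. Pearson's r used group means of log2 CPM with a prior count of 2. The scripts were tested on simulated data.

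The 8 genes, the other Tfh genes and the marker lists were chosen with earlier results of these data known. Of the 47 other Tfh genes, those named are the 3 largest called rises and falls of each comparison and Icos, Pdcd1, Il4, Prdm1 and Maf. Of the B cell markers 12 of 13 matched a single gene. Replicates differed by more than sampling noise in every group. The labels do not say whether the same replicate numbers mark paired samples. Correlations of same-numbered deviations ran from −0.229 to 0.135, and only 3 of 21 passed 0.1. No sign of pairing was seen, but with 3 libraries per group these values cannot exclude it. Alternatives were other size factors, DESeq2 1.42.0 (also required together with edgeR), no low-count filter, only the groups compared, a replicate block, covariates for B cell, erythroid and myeloid markers and sex, a stricter call (fold of at least 2, average above 50) and each library left out. A fit without the N0 and T0 libraries highest in B cell markers was added after seeing the data.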

Additional observations from a re-analysis of the deposited data

Results flagged for a closer look

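The test of the difference between the tolerant and the naive response, made within 1 edgeR fit, passed the threshold for 6 gene and stimulus pairs. For peptide these were Bcl6 (log2 ratio of responses −1.40 ± 0.22, adjusted p = 0.000167) and Sh2d1a (−0.63 ± 0.21, adjusted p = 0.0318). Every NAg library lay above every N0 library in Bcl6, and every TAg library below every T0 library. Libraries did not overlap, in either direction, for 68.1% of all tested genes in NAg against N0 and 64.5% in TAg against T0. For PI they were Pou2af1 (1.40 ± 0.34, adjusted p = 0.00991), Slamf6 (1.06 ± 0.20, adjusted p = 0.000988), Cd200 (1.06 ± 0.35, adjusted p = 0.0495) and Bcl6 (0.65 ± 0.20, adjusted p = 0.0303). With sex as a covariate the Cd200 value was 0.76 (adjusted p = 0.129), and the other 5 calls were the same. That covariate is estimated from T0 and TAg, the groups that hold both sexes.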

How the results depend on the processing

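Of the 63 log2 fold changes of the 7 tested genes, 63 kept their direction and call with DESeq2's size factors and 60 with DESeq2's own test, which added Il21 at rest (adjusted p = 5.07e-05), Il21 in the PI response (0.0349) and Pou2af1 in the peptide response (0.0479). With the replicate block 62 were the same, and the difference in PI response of Cd200 was lost (1.05, adjusted p = 0.0841). The same calls and directions were found for 60 without the low-count filter, 60 with the B cell, 59 with the sex and 54 with the erythroid and myeloid covariates, 54 with only the groups compared, and 41 of 49 without the N0 and T0 libraries highest in B cell markers. Of 462 values from fits without 1 library, 419 were the same, 32 lost and 7 gained the call and 4 changed sign. The resting comparison depended most on the settings. Of 3 genes called, 0 were called with erythroid and myeloid covariates, 1 with the sex covariate and 0 to 3 over left-out libraries. For the 47 other Tfh genes, 19 were called at rest, 2 with erythroid and myeloid covariates and 7 under the stricter call. The shares of all genes called under the alternative settings are not given here. Lost calls can therefore not be read as particular to the listed genes. With erythroid and myeloid covariates the resting standard error rose for each of the 7 tested genes. For Cd200 it rose from 0.27 to 0.52, at log2 fold changes of 1.02 and 0.99. For the difference in peptide response, 1 of the 2 calls was left with only the groups compared or the stricter call, and 1 to 4 genes were called over left-out libraries. For that in PI response, 2 of the 4 calls were left without the low-count filter, with erythroid and myeloid covariates or without the N0 and T0 libraries highest in B cell markers, and 2 to 4 were called over left-out libraries. The stricter call left 3 of 5 genes in TAg against NAg, and of the other Tfh genes 12 of 30 there, 22 of 37 in TPI against NPI, 27 of 43 in NPI against N0, 13 of 27 for the peptide and 10 of 26 for the PI response. Bcl6 at rest was −0.03 with the B cell covariate, −0.08 with sex and −0.05 to 0.17 over left-out libraries. With erythroid and myeloid covariates Slamf6 was −0.29 at rest, where it had been called, and 0.40 in TPI against T0, there called as a rise. Il21 in the peptide response ran from −0.18 to 1.21 over left-out libraries, and was −0.49 without the N0 and T0 libraries highest in B cell markers. The cause of these changes was not tested. Precision is limited by 3 libraries per group and, for Il21 at rest, by 2 to 14 reads.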

Other observations

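Il2, the T cell growth factor gene, is the neighbor of Il21 on chromosome 3 (NCBIM37 chr3:37019445-37024881, minus strand), with 96.8 kb and 3 annotated genes between them. It was chosen for its position. Il2 averaged 8.38 ± 2.19 normalized counts in N0 and 4.54 ± 2.66 in T0 (SD, n = 3). After peptide it averaged 4452 ± 1209 in NAg and 717 ± 175 in TAg, lower in tolerant cells by a log2 fold change of −2.63 ± 0.25 (SE, adjusted p = 2.95e-06), in libraries where Il21 was higher by 3.01 ± 0.30. After PI, Il2 averaged 4254 ± 538 in NPI and 8325 ± 1985 in TPI, higher in tolerant cells by 0.97 ± 0.23 (adjusted p = 0.0044), as was Il21 by 4.03 ± 0.30. The difference between the genes was not tested.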
